A study of Arabidopsis thaliana with 12 samples.

Results

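The cellulose synthase (CESA) family of Arabidopsis thaliana was followed across leaf RNA-seq libraries of wild-type and otp90 plants. The members were CESA1 to CESA10, chosen by their gene identifiers among the 32743 genes in the count tables, and all 10 were found there. The 12 libraries formed 4 groups of 3 biological replicates, and all plants were untreated leaves of 35 days in the vegetative stage, grown in long days. The wild type (WT) was Col-0, and otp90 carried a T-DNA insertion in OTP90 (AT1G25360), a gene for a pentatricopeptide repeat protein of organelle RNA editing. For each genotype, 1 set of libraries was named Mito and the other Total. How the Mito extract was made is not described in the labels, and the mutant is a single insertion line. The study looked for defects of mitochondrial editing in the mutant.

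Cellulose is made at the plasma membrane by complexes that each hold several different CESA proteins. CESA1 and CESA3 with a member of the CESA6-like group (CESA6, CESA2, CESA5 and CESA9) build cellulose of the primary wall, which surrounds growing and most living leaf cells. CESA4, CESA7 and CESA8 build cellulose of the secondary wall, which in a leaf is best known from xylem vessels and fibres. CESA9 is known from pollen and seeds, and CESA10 is a close relative of CESA1 known from the seed coat. For these reasons the level of CESA4, CESA7 and CESA8 beside that of the primary-wall members is often read as a sign of how much vascular tissue a sample holds.

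The genes lie on chromosomes 2, 4 and 5, and spans are given on the TAIR10 build. CESA1 (AT4G32410, minus strand) spans chr4:15640490-15646844, CESA3 (AT5G05170, minus) chr5:1530132-1535558 and CESA6 (AT5G64740, plus) chr5:25881033-25886728. CESA2 (AT4G39350, plus) spans chr4:18296388-18302192, CESA5 (AT5G09870, plus) chr5:3072870-3078416 and CESA9 (AT2G21770, plus) chr2:9284391-9289744. The secondary-wall genes are CESA4 (AT5G44030, plus) at chr5:17714390-17719723, CESA7 (AT5G17420, minus) at chr5:5736630-5741500 and CESA8 (AT4G18780, minus) at chr4:10312624-10316886. CESA10 (AT2G25540, minus) spans chr2:10866822-10872243. The members have 11 to 15 merged exons of 3347 to 4247 bases in all, which makes them long transcripts. Only CESA4 overlaps another gene on its own strand, by 17 exon bases.

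Close relatives can share reads, so the exons were compared with the genome before any level was read. None of the stretches of 75 bases (the read length) inside an exon of any member occurred elsewhere in the TAIR10.1 assembly. The closest pair was CESA6 and CESA5, whose most alike stretches differed at 1 base, followed by CESA1 and CESA10 at 3 bases. The stretches of both pairs are shown because a read there could be assigned to its gene only through these bases, which are in capitals. They lie in exons at chr5:25884346-25884420 (CESA6, plus strand), chr5:3076001-3076075 (CESA5, plus), chr4:15641864-15641938 (CESA1, minus) and chr2:10867918-10867992 (CESA10, minus), read 5′ to 3′ along each gene from the RefSeq copy of TAIR10.1.
CESA6: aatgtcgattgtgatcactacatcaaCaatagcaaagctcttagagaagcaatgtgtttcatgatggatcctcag
CESA5: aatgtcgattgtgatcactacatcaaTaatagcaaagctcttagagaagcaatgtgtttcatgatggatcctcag
CESA1: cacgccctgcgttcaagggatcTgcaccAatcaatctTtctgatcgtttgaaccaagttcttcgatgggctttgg
CESA10: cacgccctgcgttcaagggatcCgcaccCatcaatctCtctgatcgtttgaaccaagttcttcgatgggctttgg

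CESA2 and CESA9 differed at 4 bases or more in every such stretch, and any pair of CESA4, CESA7 and CESA8 at 9 or more.

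The libraries held 24660745 to 32418348 counts in the Mito groups and 49434596 to 60464017 in the Total groups. Plastid genes took 42.7% to 48.9% of the Mito counts and 56.7% to 62.2% of the Total counts, and mitochondrial genes 2.89% to 5.16% and 0.959% to 1.19%. In Mito, OTP90 itself had 16 to 20 counts in WT and 6 to 17 in the mutant, and in Total 6 to 16 and 6 to 10 counts, so the ranges of the genotypes overlapped and these counts do not check the labels. A chi-square test of counts found every pair of replicates to differ beyond sampling noise (10.5 to 88.3 per degree of freedom), so each library counted as 1 sample. Replicate 2 of Total WT and replicate 2 of Total otp90 stood apart in the secondary-wall genes. Fold changes and shares that rest on them are given with and without them, while correlations between genes were computed only with all libraries.

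Of the primary-wall genes 5 ranked high among leaf transcripts, and the secondary-wall genes were far below them. Levels are given in CPM, which are counts brought to a common library size with TMM factors that correct for composition, and levels of different genes were compared as CPM per kb of exon. Per kb, the order was CESA3, CESA1, CESA6, CESA5, CESA2, CESA4, CESA8, CESA7, CESA9, CESA10 in all 4 groups. Most neighbours in this order had ranges that did not overlap, but CESA1 and CESA6, CESA4 and CESA8, and CESA8 and CESA7 overlapped in both Total groups, and CESA8 and CESA7 also in Mito WT. In the plot of levels by gene and group, the 5 leading genes and the 3 secondary-wall genes form separate bands in every library.

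**Figure D1:**
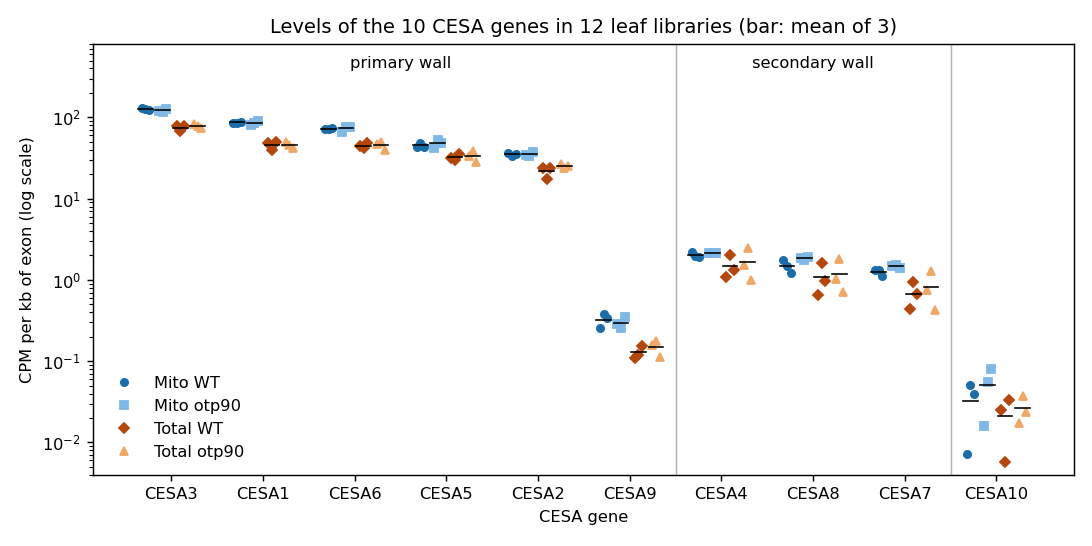
Level of each CESA gene in CPM per kb of exon (log axis) in the 12 libraries, with 1 point per library and a bar at the mean of each group of 3. CESA3, CESA1, CESA6, CESA5 and CESA2 lie above the secondary-wall genes CESA4, CESA8 and CESA7 in all libraries, and CESA9 and CESA10 lie below them.

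CESA3 and CESA1, the members that every primary-wall complex needs, led the family. In replicates 1 to 3, CESA3 stood at 495, 480 and 474 CPM (WT) and 458, 452 and 485 CPM (otp90) in Mito, and at 298, 258 and 299 CPM (WT) and 315, 296 and 284 CPM (otp90) in Total. CESA1 stood at 365, 363 and 368 CPM (WT) and 337, 355 and 384 CPM (otp90) in Mito, and at 203, 166 and 209 CPM (WT) and 209, 194 and 179 CPM (otp90) in Total. For both genes every Mito library lay above every Total library, and the genotypes overlapped. How many of all genes were separated in this way was not counted. Calls of higher in Mito, tested below, were common, at 22.8% (WT) and 24.8% (otp90) of all genes tested. Per kb, CESA3 ranked above 97.1% to 98.8% of the 16639 nuclear genes that exceeded 1 CPM in 3 or more of the libraries.

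The CESA6-like members share the remaining position of the primary-wall complex, and they were not equally abundant. CESA6 averaged 303 ± 2.08 CPM (WT) and 304 ± 22.5 CPM (otp90) in Mito, and 187 ± 13.6 and 189 ± 22.1 CPM in Total (SD, n = 3 here and below). CESA5, known for its part in seed coat mucilage, averaged 187 ± 12.0, 198 ± 20.3, 135 ± 11.1 and 138 ± 20.7 CPM in the same order of groups. CESA2, partly redundant with CESA6, averaged 149 ± 4.78, 150 ± 7.94, 92.1 ± 14.9 and 107 ± 6.26 CPM. Of the summed level per kb of the CESA6-like members, CESA6 took 43.5% to 47.4%, CESA5 29.5% to 32.9% and CESA2 21.8% to 24.4% as group means. CESA9 took 0.129% to 0.212%, with 19 to 58 counts per library.

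CESA10 was barely detected, with 1, 7 and 5 counts (WT) and 2, 7 and 8 counts (otp90) in Mito, and 4, 1 and 5 counts (WT) and 3, 7 and 4 counts (otp90) in Total. Several of these counts lie at or under 3, the limit that a count of 0 allows, and no fold change is drawn from them.

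The secondary-wall genes were low but measured in every library. CESA4 had 228 to 320 counts in the Mito libraries and 173 to 478 in the Total libraries, which gave 8.39, 7.48 and 7.31 CPM (WT) and 8.07, 8.14 and 8.16 CPM (otp90) in Mito, and 4.15, 7.74 and 5.06 CPM (WT) and 5.76, 9.27 and 3.71 CPM (otp90) in Total. CESA8 stood at 5.87, 5.0 and 4.07 CPM (WT) and 6.31, 5.85 and 6.48 CPM (otp90) in Mito, and at 2.21, 5.46 and 3.28 CPM (WT) and 3.45, 5.97 and 2.36 CPM (otp90) in Total. CESA7 stood at 4.56, 4.53 and 3.78 CPM (WT) and 5.12, 5.17 and 4.83 CPM (otp90) in Mito, and at 1.48, 3.17 and 2.28 CPM (WT) and 2.58, 4.38 and 1.44 CPM (otp90) in Total. In both Total groups replicate 2 was the highest library for all 3 genes, while in Mito WT replicate 1 was the highest for all 3 within a narrower range, and in Mito otp90 no library was the highest for all 3. The coefficient of variation of the 3 genes was 33.1% to 53.0% in the Total groups and 0.581% to 18.1% in the Mito groups, against 0.687% to 16.2% for CESA1, CESA3, CESA6, CESA2 and CESA5 over all groups.

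The 3 secondary-wall genes moved together. In the Total WT replicate 2, CESA4, CESA7 and CESA8 stood at 1.68, 1.69 and 1.99 times the mean of the other replicates, and in the Total otp90 replicate 2 at 1.96, 2.18 and 2.05 times. CESA1 stood at 0.807 times the others in the Total WT replicate 2 and at 1.0 times in the Total otp90 replicate 2, and CESA3 at 0.863 and 0.988 times. After the mean of each group was removed, Pearson's r over the 12 libraries was 0.977 between CESA4 and CESA7, 0.965 between CESA4 and CESA8, and 0.959 between CESA7 and CESA8. These correlations are descriptions over libraries that include the high replicates just named.

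Other genes of xylem and secondary wall were also high in those libraries. A list of 24 such genes (xylan, laccase, fasciclin-like, xylem protease and regulator genes, with no CESA gene) summed to 70.3 CPM in the Total WT replicate 2 against 40.8 and 45.5 in the other replicates, and to 63.9 CPM in the Total otp90 replicate 2 against 34.4 and 49.1. Of the 22 list genes that could be ranked in each Total group, 18 were highest in replicate 2 of Total WT and 16 in replicate 2 of Total otp90, against 41.9% and 31.5% of all 16639 nuclear genes ranked. In each Mito group 6 of 23 were highest in replicate 2, against 34.8% and 35.7%, and the list summed to 46.0 to 52.2 CPM over the Mito libraries. The rules of ranking differed. A list gene needed 3 or more counts summed over its group, while the nuclear genes beside it exceeded 1 CPM in 3 or more libraries. Only 10 of the 24 list genes exceeded 1 CPM in all libraries, so many were near the floor and the sets are not alike. NST3, a master regulator of fibre walls, had 0 counts in all libraries. In bulk leaf RNA, fewer xylem cells and less of these transcripts per cell cannot be told apart, and whether the amount of vein in a sample differed was not tested.

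**Figure D2:**
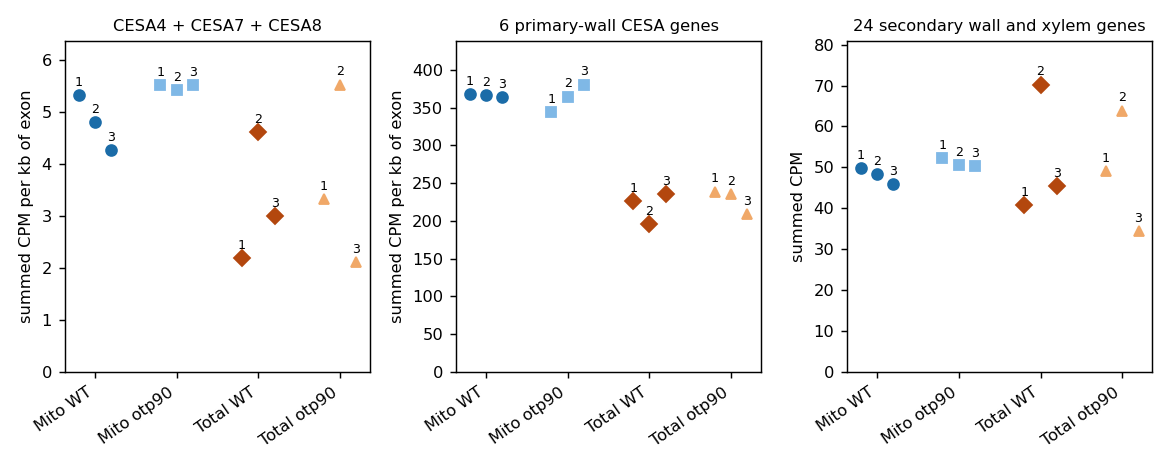
Summed level per library of CESA4, CESA7 and CESA8 (left, CPM per kb of exon), of the 6 primary-wall CESA genes (middle, CPM per kb of exon) and of the 24 secondary wall and xylem genes (right, CPM), with the replicate number over each point and axes from 0. Replicate 2 is the highest library of both Total groups on the left and on the right, but not in the middle.

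The genes whose levels varied most like those of the secondary-wall members included wall enzymes. Likeness was Pearson's r over the 12 libraries, with group means removed, to the mean log2 level of CESA4, CESA7 and CESA8, among the 14236 genes with more than 1 CPM in all libraries. The 5 highest were XTH9 (r = 0.981), the lignin laccase LAC11 (0.976), SBTI1.1 (0.973), ATSBT5.2 (0.972) and AT3G15460 (0.965). XTH9 is a xyloglucan endotransglucosylase, and SBTI1.1 and ATSBT5.2 are subtilisin-like proteases. LAC11 is also on the xylem list, so it enters the median of that list. The median r of the 10 xylem list genes above that level was 0.902, that of 6 epidermis, guard cell and trichome genes 0.706, that of 6 phloem and procambium genes 0.520, that of 5 mesophyll genes -0.199 and that of all genes -0.068. Among the primary-wall members r was 0.463 for CESA5, 0.380 for CESA6, -0.212 for CESA1, -0.241 for CESA3 and -0.563 for CESA2. All genes of a library share its depth and scaling, and the libraries include the high replicates named above, so these values are descriptions.

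The promoters of the secondary-wall trio are shown because these genes varied together and are known targets of MYB46 and MYB83, regulators that bind the secondary wall MYB-responsive element. The 250 bases before each gene start were searched on both strands for its 8 spellings of 7 bases, which are ACC, then A or T, then A, then A or C, then T or C, and a match is in capitals. The windows, from the RefSeq copy of TAIR10.1, are chr5:17714140-17714389 (CESA4, plus strand), chr5:5741501-5741750 (CESA7, minus) and chr4:10316887-10317136 (CESA8, minus).
CESA4: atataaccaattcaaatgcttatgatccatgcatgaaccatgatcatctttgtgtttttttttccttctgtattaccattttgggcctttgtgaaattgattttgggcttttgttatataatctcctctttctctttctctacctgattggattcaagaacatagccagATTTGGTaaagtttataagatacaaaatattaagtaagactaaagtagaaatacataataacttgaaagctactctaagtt
CESA7: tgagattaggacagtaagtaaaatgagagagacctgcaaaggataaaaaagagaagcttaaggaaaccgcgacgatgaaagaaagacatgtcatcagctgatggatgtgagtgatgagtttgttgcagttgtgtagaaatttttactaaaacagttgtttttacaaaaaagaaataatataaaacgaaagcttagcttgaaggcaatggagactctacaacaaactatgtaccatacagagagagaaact
CESA8: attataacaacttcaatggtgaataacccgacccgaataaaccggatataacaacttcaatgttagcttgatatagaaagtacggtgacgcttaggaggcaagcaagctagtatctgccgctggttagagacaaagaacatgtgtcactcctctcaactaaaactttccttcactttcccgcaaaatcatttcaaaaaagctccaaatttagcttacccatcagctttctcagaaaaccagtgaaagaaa

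CESA4 held 1 match, on the reverse strand with its leftmost base 81 bases before the start, and CESA7 and CESA8 held none in this window. CESA1, CESA5 and CESA9 each held 1 match too, so 4 of 10 members matched. Of all 27431 promoters of this length, 29.4% held a match, and a match is a description of letters, not of binding.

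The share of secondary-wall genes in the family was small in every group. CESA4, CESA7 and CESA8 together made up 1.42%, 1.30% and 1.16% of the summed level per kb of primary-wall and secondary-wall members in replicates 1 to 3 of the WT Mito libraries, and 1.58%, 1.47% and 1.43% in those of otp90. In Total the share was 0.962%, 2.30% and 1.26% for WT and 1.37%, 2.30% and 0.997% for otp90. The means were 1.29% ± 0.132 (WT) and 1.49% ± 0.0804 (otp90) in Mito and 1.51% ± 0.702 and 1.55% ± 0.669 in Total, so the spread of the Total groups covered all Mito values. Without replicate 2 the mean was 1.11% in Total WT and 1.18% in Total otp90, which lies below the mean of either Mito group. Replicate 2 had the highest share of each Total group, so leaving it out was bound to lower the mean. The relative share of each secondary-wall gene within the trio was 39.2% to 46.5% for CESA4, 30.9% to 33.8% for CESA8 and 20.8% to 27.0% for CESA7 as group means.

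Mito against Total was the comparison in which the family differed most. Among the 8 members above 1 CPM in all libraries, 6 were higher in Mito than in Total in WT (edgeR quasi-likelihood test, Benjamini-Hochberg adjusted p under 0.05), where 22.8% of the 16436 genes tested were called higher. In otp90 5 of the 8 were higher, where 24.8% of 16337 genes were. These were CESA1, CESA3, CESA6, CESA2 and CESA5 in both genotypes and CESA7 in WT. The labels do not name separate plants or pools for the replicates, so p-values measure the spread between these samples only.

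CESA1 showed a log2 fold change of 0.93 (SE 0.116, adjusted p = 0.00136 by edgeR) in WT and 0.90 (SE 0.101, adjusted p = 0.0005) in otp90. CESA3 rose by 0.76 (SE 0.103, adjusted p = 0.00175) and 0.66 (SE 0.087, adjusted p = 0.00104) on the log2 scale, and CESA6 by 0.70 (SE 0.0953, adjusted p = 0.00183) and 0.70 (SE 0.121, adjusted p = 0.00298). CESA2 rose by 0.70 (adjusted p = 0.00687) and 0.50 (adjusted p = 0.00305), and CESA5 least, by 0.48 (adjusted p = 0.0104) and 0.54 (adjusted p = 0.0183). The CESA5 call was lost without Total WT replicate 1 (adjusted p = 0.0571), without Mito otp90 replicate 2 or 3 (0.0605 and 0.0597) and without Total otp90 replicate 1 (0.0875). CESA9 was at 1.02 to 1.51 CPM in Mito and 0.433 to 0.698 CPM in Total. It passed the filter only through the Mito libraries, so no fold change or test of Mito against Total is given for it. Only counts of members called or tested include it where this is said.

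The secondary-wall genes had positive differences with wider errors. CESA7 had a log2 fold change of 0.89 (SE 0.267, adjusted p = 0.0329 by edgeR) in WT and 0.85 (SE 0.356, adjusted p = 0.085) in otp90. CESA4 had 0.45 (SE 0.228, adjusted p = 0.151) and 0.39 (SE 0.302, adjusted p = 0.325), and CESA8 had 0.45 (SE 0.325, adjusted p = 0.301) and 0.67 (SE 0.312, adjusted p = 0.117). The CESA7 call in WT was lost without Mito WT replicate 1, 2 or 3 or Total WT replicate 3 (adjusted p = 0.0967, 0.0933, 0.0657 and 0.0899). The values moved up or down with single Total libraries. Without Total WT replicate 2, CESA4 (0.69, adjusted p = 0.00169), CESA7 (1.14) and CESA8 (0.81, adjusted p = 0.00984) all passed. Without Total otp90 replicate 2 they passed at 0.75, 1.30 and 1.06 (adjusted p = 0.02, 0.00587 and 0.00436). Both of these libraries were the highest of their groups for all of these genes. Leaving them out was bound to raise the differences, so these calls are no separate support. Over all genes, leaving out the WT library raised the calls of higher in Mito from 3748 of 16436 to 5118 of 16300. Leaving out the otp90 library moved them from 4049 of 16337 to 3708 of 16217. Without Total WT replicate 1, CESA4 (0.24) and CESA8 (0.16) did not pass, while CESA7 still did (0.62, adjusted p = 0.0421). Without Total otp90 replicate 3, CESA4 was at 0.05, CESA7 at 0.47 and CESA8 at 0.33, and none passed. These libraries were the lowest of their groups for the trio, so leaving them out was bound to lower the differences. Whether primary-wall and secondary-wall genes differed in their response to the extract was not tested.

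**Figure D3:**
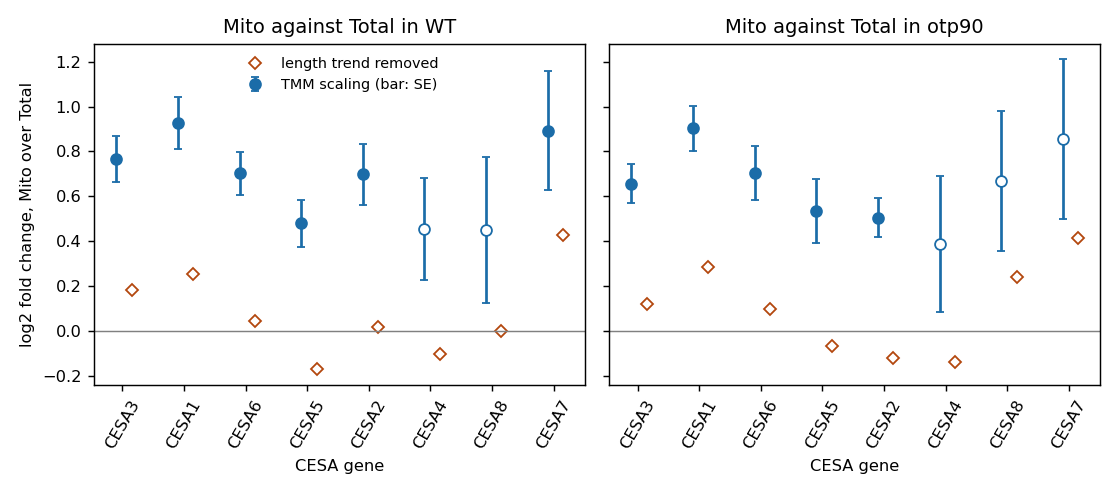
Log2 fold change of Mito over Total for the 8 members above 1 CPM in all libraries, in WT (left) and otp90 (right), with filled circles past an adjusted p of 0.05, open circles not past it, bars of 1 SE and diamonds for the value after the trend with exon length was removed. All circles lie above 0, and the diamonds lie between -0.17 (CESA5 in WT) and 0.43 (CESA7 in WT) with none past the threshold.

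Longer genes were higher in Mito in general, and the CESA genes are long. The median log2 fold change of all nuclear genes tested in WT went from -0.51 for exon lengths up to 1000 bases to 0.50 for lengths over 3000 and up to 4500 bases, the bin that holds all 10 members. In that bin 59.2% of 1852 genes were called higher in Mito in WT and 59.6% of 1855 in otp90, where the median was 0.48. After the trend with exon length was removed from each library, no member passed in either genotype. Of all genes, 2344 of 16436 were then called higher and 2540 lower in WT, and 2776 of 16337 higher and 2829 lower in otp90. CESA1 then had 0.25 (adjusted p = 0.199) in WT and 0.28 (adjusted p = 0.0562) in otp90, and CESA3 0.18 and 0.12. CESA5 and CESA4 turned negative in both genotypes, CESA8 in WT and CESA2 in otp90. The part of length in the differences of single members was not tested beyond this.

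**Figure D4:**
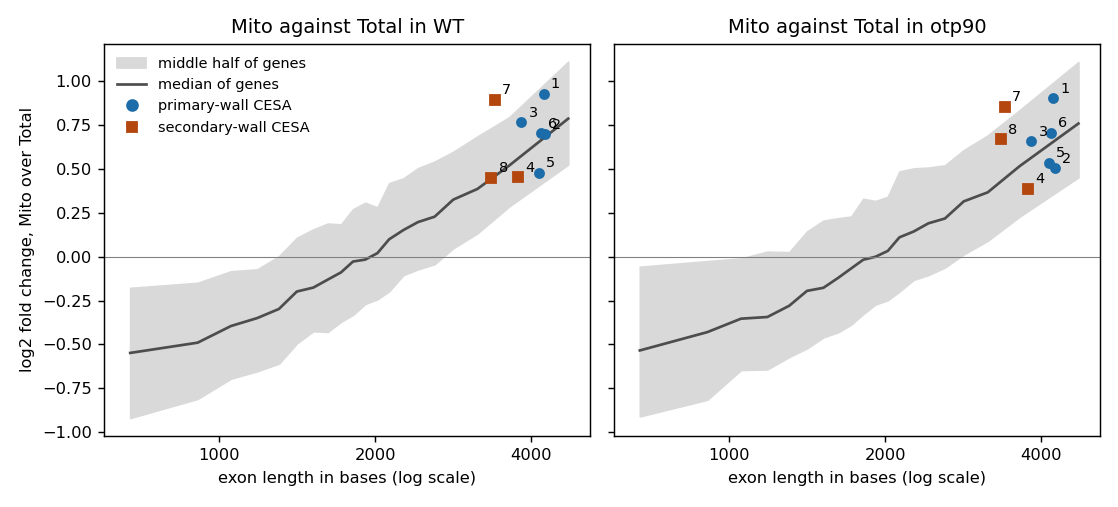
Log2 fold change of Mito over Total against exon length in bases (log axis) in WT (left) and otp90 (right). The grey line and band give the median and the quartiles of all nuclear genes tested, in 20 bins of equal gene number, and the numbered points the 8 CESA members above 1 CPM in all libraries, which lie at lengths where the median is well above 0.

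Among the partners of cellulose synthesis, a list of 12 genes, 7 were higher in Mito in WT and 9 in otp90, against 22.8% and 24.8% of all genes tested, none was lower, and the median log2 fold change was 0.40 and 0.36 against 0.00 and 0.02 over all genes. CSI1, which links the complexes to cortical microtubules, rose by 1.13 (SE 0.101, adjusted p = 0.000581 by edgeR) in WT and 1.26 (SE 0.108, adjusted p = 0.00019) in otp90. KOR1, an endoglucanase of the complex, rose by 0.41 (adjusted p = 0.0104) and 0.29 (adjusted p = 0.0218). CTL1, a chitinase-like protein needed for cellulose deposition, had 0.10 in both genotypes and did not pass. With the length trend removed, 1 partner in WT and 4 in otp90 were higher, against 14.3% and 17.0% of all genes, and CSI1 was at -0.01 and 0.16.

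Markers of other cell types moved with the same comparison. All 5 mesophyll genes were lower in Mito in both genotypes, with summed levels of 9583 to 10826 CPM in Mito and 14807 to 20853 in Total. Of all genes tested, 20.9% were called lower in Mito in WT and 22.3% in otp90, beside the 22.8% and 24.8% called higher. The remaining lists were counted over their genes above 1 CPM in all libraries compared. Of the genes of dividing cells, 2 of 3 were higher and 1 lower in WT, and 1 of 2 was higher in otp90. Of 6 epidermis, guard cell and trichome genes 4 were higher in WT and 3 in otp90, with none lower. Phloem and procambium genes split, with 1 of 6 higher and 3 lower in WT and 1 higher and 2 lower in otp90, and the xylem list had 1 of 10 higher in WT and 2 of 10 in otp90 with 1 lower. With the length trend removed, no epidermis, guard cell or trichome gene among these 6 passed, 4 of 5 mesophyll genes were still lower in each genotype, and 2 of 3 (WT) and 1 of 2 (otp90) genes of dividing cells were still higher. Phloem and procambium genes then had 1 of 6 higher in each genotype with 4 (WT) and 2 (otp90) lower, and the xylem list had 0 and 1 of 10 higher and none lower. Of 3 pollen and seed coat genes 2 were tested and none passed, and the pollen gene VGD1 was at or near 0. Their part in the CESA differences was not tested.

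No CESA gene passed the test between otp90 and WT. In Mito, 0 of 9 members tested passed, where 10 of 16570 genes did (0.0604%). Over all genes, blocking on the replicate number gave 221 calls and DESeq2 gave 105. The largest differences were those of CESA8 (log2 0.31, SE 0.134, adjusted p = 0.708 by edgeR) and CESA7 (0.22, SE 0.109, adjusted p = 0.745), and the other members lay between -0.15 and 0.07. CESA8 was the only member with an unadjusted p under 0.05. Both CESA7 and CESA8 were higher in otp90 in all 3 same-numbered pairs of Mito libraries. By CPM the barely detected CESA10 was too, but with 1 to 8 counts per library and 7 in both libraries numbered 2. No direction is drawn from it. The ranges of CESA7 did not overlap (3.78 to 4.56 CPM in WT, 4.83 to 5.17 CPM in otp90). How many of all genes showed either pattern was not counted, so both are descriptions of these libraries. The secondary-wall share of the family holds CESA7 and CESA8, so it is not a separate result. It was higher in otp90 in all 3 same-numbered pairs, and its ranges were barely apart (up to 1.424% in WT, from 1.429% in otp90). With the replicate number as a block, CESA8 had 0.31 with an adjusted p of 0.267, and still no member passed.

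In Total, 0 of 8 members passed and 0% of 15373 genes did (458 genes at an unadjusted p under 0.05, and 18 calls by DESeq2). CESA2 had a difference of 0.21 (SE 0.148, adjusted p = 0.9997 by edgeR), and CESA7 the largest at 0.28 (SE 0.447). CESA4 had 0.15 (SE 0.376) and CESA8 0.11 (SE 0.436). The signs of CESA4, CESA7 and CESA8 turned negative without Total otp90 replicate 2 (CESA4 -0.27, CESA7 -0.22, CESA8 -0.34). That removal takes the high library from otp90 only. With a single library left out, the highest values were 0.45 (CESA4), 0.59 (CESA7) and 0.53 (CESA8), that of CESA4 without Total WT replicate 2. Without both Total replicates numbered 2 these signs stayed positive, with CESA4 at 0.036. The standard errors of CESA4, CESA7 and CESA8 were 0.376 to 0.447 in Total against 0.087 to 0.134 in Mito, so smaller differences were within reach of the test in Mito than in Total.

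Whether the genotype difference itself differed between the extracts was tested as an interaction, which 0 of 9 members and 0% of 16825 genes passed (853 at an unadjusted p under 0.05, 6 calls by DESeq2). Among the 8 members above 1 CPM in all libraries, the interaction ran from -0.21 (CESA2, SE 0.161) to 0.21 (CESA8, SE 0.488). The primary-wall genes CESA1, CESA3, CESA6, CESA2 and CESA5 lay between -0.21 and 0.04. CESA9 was counted among the 9 but passed the filter only through Mito, so its value is not given.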

How the data were processed

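RNA from leaves was depleted of ribosomal RNA, made into stranded single-end libraries with reads of 75 bases, and mapped with STAR by the authors. The deposited tables hold read counts per gene, made by the authors with featureCounts 1.6.3 on exons of the Ensembl Genomes release 39 annotation (TAIR10), stranded (setting 2) and with reads of several positions counted. No values of other samples were used. Counts were read as deposited. The tests were edgeR 4.0.16 quasi-likelihood tests in R 4.3.3 with TMM scaling, on genes exceeding 1 CPM in 3 or more of the libraries fitted, each on the 2 groups compared (the interaction on all 12 libraries), with Benjamini-Hochberg adjustment over all genes tested and a threshold of 0.05. Log2 levels used a prior count of 2. Scripts were tested on simulated data. DESeq2 1.42.0, other scalings and filters, a length correction (a smooth trend of log2 level on exon length, per library) and leaving out libraries were alternatives. Removing both Total replicates numbered 2 was added after seeing the data. All members were named, and of each list the 3 most abundant genes could be. Members and lists were chosen with earlier results of these data known. Same-numbered Mito libraries of the genotypes deviated together (correlations 0.413, 0.401 and 0.102). The main tests did not pair them, and fits with the replicate number as a block were given as a further alternative. Protein sequences were not used here.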

Additional observations from a re-analysis of the deposited data

How the results depend on the processing

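CESA1, CESA3, CESA6 and CESA2 were called higher in Mito in both genotypes whichever single library was left out, while calls of CESA5 and CESA7 were lost without some. The number of members called higher was 7 in WT and 6 in otp90 with CESA9, which passed the filter only through Mito, counted in (6 and 5 of the 8 others), stayed within 1.5 times of that under other scalings, filters and tools, and fell to 0 in both once the length trend was removed. Leaving out 1 library at a time gave 5 to 9 calls in WT and 4 to 9 in otp90, and CESA9 dropped out of the filter when a Mito library was left out. Scaling by library size alone shifted the typical gene by 0.48 (WT) and 0.455 (otp90) and added CESA4 in WT and CESA4, CESA7 and CESA8 in otp90. With 1 fit of all 12 libraries CESA7 in WT was not called (adjusted p = 0.0521). With the replicate number as a block CESA7 in otp90 passed (0.97, adjusted p = 0.0474), and the pairing changed no other call of a member. Same-numbered libraries correlated at -0.00307 to 0.0732 (Mito against Total in WT), -0.26 to 0.169 (in otp90) and -0.386 to 0.275 (genotypes in Total), so there the number was not taken as a pair. No alternative called a member between genotypes or in the interaction; the block moved the count of all genes called in Mito from 10 to 221, and DESeq2 gave 105.

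The secondary-wall share from raw counts was 1.13% (WT) and 1.3% (otp90) in Mito. Leaving out 1 library gave shares per kb of 1.23% to 1.36% and 1.45% to 1.52% in Mito, and of 1.11% to 1.78% and 1.18% to 1.83% in Total.

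Signs that turned with the length trend removed were those of CESA5 (-0.171), CESA4 (-0.104) and CESA8 (-0.000962) for Mito against Total in WT, CESA2 (-0.119), CESA5 (-0.0669) and CESA4 (-0.137) in otp90, CESA1 (-0.0591), CESA6 (-0.0515) and CESA5 (-0.028) for otp90 against WT in Total, and CESA1 (0.028) and CESA6 (0.0503) for the interaction. Only the first 2 of these comparisons held called members. All other turned signs were of differences between genotypes that were never called, and their cause was not tested. In Mito they were CESA2 with RLE factors (0.000627), nuclear genes only (0.00174), DESeq2 (0.000514) and 1 fit of all libraries (0.00792), CESA6 with that fit (0.00584), and CESA5 (-0.0119) and CESA4 (-0.0221) with library size alone. In Total, library size alone turned CESA1 (-0.0625), CESA3 (-0.0109), CESA6 (-0.0615), CESA5 (-0.0373) and CESA8 (-0.0059), and leaving out both replicates numbered 2 turned CESA1 (-0.092), CESA3 (-0.00182), CESA6 (-0.108) and CESA5 (-0.136). For the interaction, CESA6 turned with RLE factors (0.00624) and DESeq2 (0.00615), CESA7 with the replicate block (0.002), and CESA1 (0.0813), CESA6 (0.128), CESA4 (0.0479) and CESA7 (0.151) without both replicates.

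Leaving out 1 library gave, in Mito, -0.0828 to 0.00448 for CESA1, -0.03 to 0.0526 for CESA6 and -0.0415 to 0.0353 for CESA2. In Total it gave -0.0801 to 0.0748 for CESA1, -0.0651 to 0.106 for CESA6, -0.0942 to 0.137 for CESA5, -0.27 to 0.452 for CESA4, -0.219 to 0.588 for CESA7 and -0.345 to 0.53 for CESA8. For the interaction it gave -0.0994 to 0.0636 for CESA1, -0.103 to 0.0555 for CESA6, -0.0561 to 0.161 for CESA5, -0.376 to 0.327 for CESA4, -0.357 to 0.435 for CESA7 and -0.21 to 0.647 for CESA8.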

Other observations

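Relatives of the CESA genes were higher in Mito too, where 22.8% (WT) and 24.8% (otp90) of all genes tested were called higher. Of the 6 cellulose synthase-like D genes, 3 were tested and all 3 were higher in both genotypes (adjusted p under 0.05 by edgeR): CSLD5, known from dividing cells, at a log2 fold change of 2.21 (SE 0.178) in WT and 2.54 (SE 0.306) in otp90, CSLD2 at 1.53 and 1.51, and CSLD3, known from root hairs, at 1.20 and 1.11. With the length trend removed all 3 still passed in both genotypes (CSLD5 1.62 and 1.99, CSLD2 0.81 and 0.84, CSLD3 0.52 and 0.48), against 14.3% (WT) and 17.0% (otp90) of all genes called higher. Of the cellulose synthase-like C genes, a family of xyloglucan backbone synthesis, all 4 above 1 CPM in all libraries compared were higher in both genotypes (CSLC4 0.69 and 0.78), and 3 in WT and 1 in otp90 passed with the trend removed. Whether these families differed from the CESA genes was not tested. None of these genes passed between otp90 and WT.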
